A study of Mus musculus with 16 samples.

Results

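Sncb encodes β-synuclein, a presynaptic protein of neurons and the closest relative of α-synuclein. It was followed here because the neurons of this series were loaded with fibrils of α-synuclein, which raises the question of whether loading or contact with microglia changes the neurons' own synuclein mRNA. Of the 2 synuclein genes named for description, Sncb and Sncg, Sncb was matched by its gene symbol among the 16934 genes of the count table, and Sncg was not analysed here. Sncb was also among the 13139 genes that passed the filter on low counts. The cells were primary cortical neurons of C57BL/6 mouse embryos of day 15 to 16, kept for 14 days in culture. Loaded neurons had received Atto488-labelled α-synuclein fibrils at 0.1 µM for 16 h and were then washed, and control neurons were untreated. Neurons of each kind were then cultured for 6 h with microglia, the immune cells of the brain, or without them. The 16 libraries formed 4 groups of 4: loaded neurons with microglia, untreated neurons with microglia, loaded neurons alone and untreated neurons alone. How the neurons were separated from the microglia ahead of RNA isolation is not stated in the labels. Nor is it stated that the libraries of a group come from different cultures, and p-values thus reflect only how far these libraries differ, which can be technical.

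Synucleins are small proteins that bind membranes of synaptic vesicles, the packets of transmitter at nerve endings. α-Synuclein binds the vesicle protein VAMP2 and promotes assembly of the SNARE complex, which fuses vesicles with the cell membrane, and its fibrils accumulate in Parkinson's disease. β-Synuclein lacks part of the central stretch that lets α-synuclein form fibrils, forms them poorly itself and slows fibril growth of α-synuclein in the test tube. It is made mainly by neurons of the brain, while γ-synuclein, the product of Sncg, is best known from sensory neurons, retinal ganglion cells and some interneurons.

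Libraries held 6511516 to 13986374 counts and 10817 to 13079 detected genes. They were made with a kit that reads the 3′ end of each transcript, so counts do not scale with transcript length and levels can be set side by side between genes. Libraries of one group differed widely, with a biological coefficient of variation of 1.17 over all genes and 1.06 for Sncb. The 20 pan-neuronal marker genes were all found in the count table of these libraries, labelled as neurons, with Ncam1, Mapt and Map2 the most abundant. They were not detected in every library: Stmn2 had 0 counts in loaded co-culture replicate 1. In untreated co-culture replicate 1, 1 of the 20 had 0 or 1 count. In replicate 1 of both co-culture groups microglial genes summed to 1431 CPM (loaded) and 732 CPM (untreated), while the remaining co-cultures held 13.7 to 79.8 CPM and neurons alone held 8.001 to 41.0 CPM. CPM values are counts relative to library size after scaling between libraries.

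Sncb lies on chromosome 13 at chr13:54758860-54766595 on the minus strand (GRCm38, GENCODE M21), where it is annotated as a protein-coding gene. Its transcript has 6 exons, with 399 coding bases in a spliced length of 1351. It overlaps 0 annotated genes, and the nearest neighbours are Gprin1, 8985 bases away, and Gm16249, 10918 bases away on the other side.

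Sncb was lowest in loaded neurons with microglia and highest in untreated neurons alone. In loaded neurons with microglia the 4 libraries held 0.158, 12.8, 46.2 and 105 CPM in the order of replicates 1 to 4. In untreated neurons with microglia they held 43.1, 86.0, 162 and 28.2 CPM. In loaded neurons alone they held 182, 12.4, 226 and 449 CPM, and in untreated neurons alone 156, 368, 459 and 498 CPM. The first value of the loaded co-cultures rests on 1 count, whose 95% Poisson interval runs from 0.00399 to 0.879 CPM and covers counting error only. The other 15 libraries held 106 to 6788 counts of Sncb, so their counting error is small beside the spread between replicates.

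As group means, Sncb stood at 41.0 ± 46.9 CPM in loaded neurons with microglia and 79.8 ± 59.9 CPM in untreated neurons with microglia (SD, n = 4 each). It averaged 217 ± 180 CPM in loaded neurons alone and 371 ± 153 CPM in untreated neurons alone (SD, n = 4 each). Among the tested genes these means had rank 4329, 2311, 804 and 360 from the top, in the same order of groups. Each step between neighbouring groups in this order was smaller than the larger of the 2 SDs. The ends of the order did not overlap: loaded co-cultures reached at most 105 CPM, and untreated neurons alone were at 156 CPM or more. Of all tested genes, 5.62% were lower without overlap in the same way between these 2 groups, and no test was run on this pair.

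**Figure D1:**
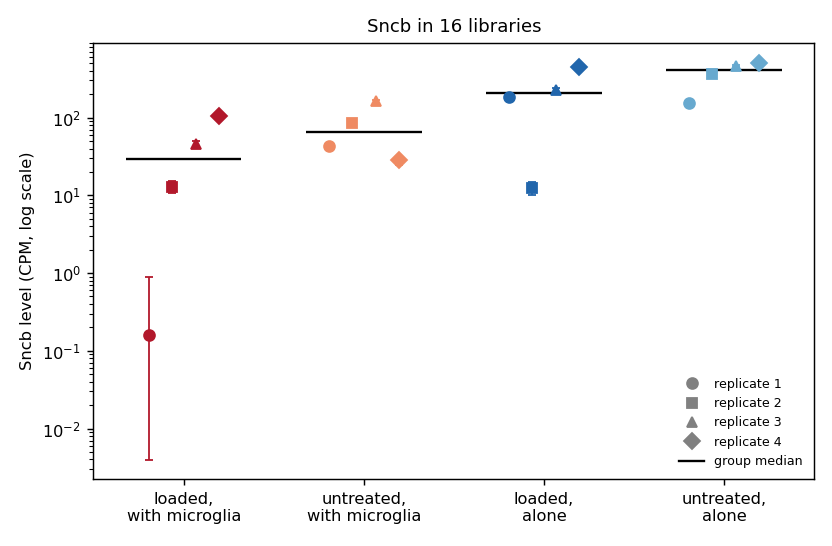
Level of Sncb in each of the 16 libraries, in CPM on a log axis, by group. Symbols mark replicates, vertical lines the 95% Poisson interval of the count, and horizontal lines the group median; replicate 1 of the loaded co-cultures lies at 0.158 CPM, and every co-culture library lies below 6 of the 8 libraries of neurons alone.

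The first comparison asks whether co-culture with microglia goes with another level of Sncb. The 8 co-culture libraries held 0.158 to 162 CPM with a median of 44.7 CPM, and the 8 libraries of neurons alone held 12.4 to 498 CPM with a median of 297 CPM. The sets overlapped: 6 of 8 libraries of neurons alone lay above every co-culture library, while replicate 2 of the loaded neurons alone, at 12.4 CPM, lay below all co-culture libraries except replicate 1 of the loaded group. Averaged over fibrils, Sncb was lower with microglia by a log2 change of -2.31 ± 0.85 (SE, 95% interval -4.14 to -0.47), with a Benjamini-Hochberg adjusted p of 0.192 in edgeR's quasi-likelihood test. The change therefore does not pass, in a comparison where 2.19% of all tested genes passed and 0.974% passed as lower. The change lay at percentile 5.44 of all tested genes, with 715 genes lower and a median of -0.03 over all genes. DESeq2 gave a like change of -2.33 with an adjusted p of 0.0373, which passes. A lower bulk level of Sncb cannot tell fewer cells of a type from less RNA per cell.

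The same comparison within each fibril condition gave values of similar size. In loaded neurons the log2 change with microglia was -2.40 ± 1.21 (SE, 95% interval -5.01 to 0.20), with an edgeR adjusted p of 0.468, where 0.114% of genes passed. In untreated neurons it was -2.22 ± 1.20 (SE, 95% interval -4.80 to 0.37), with an edgeR adjusted p of 0.664, where 0.122% of genes passed. The comparisons share no library, and in both the co-culture group overlapped the neurons alone, through replicate 2 in loaded neurons and through replicate 3 of the co-cultures and replicate 1 of the neurons alone in untreated ones.

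Of the markers of other cells, oligodendrocyte-lineage genes rose with co-culture, and microglial genes were higher but did not pass in edgeR. Oligodendrocyte-lineage genes summed to 8107 ± 1895 CPM in loaded and 5779 ± 1949 CPM in untreated co-cultures, against 2483 ± 694 CPM in loaded and 1556 ± 476 CPM in untreated neurons alone (SD, n = 4 each), and 12 of 15 passed as higher in the averaged comparison, where 1.22% of all genes did. All 12 tested microglial genes had a positive log2 change in the averaged comparison, with a median of 5.03. Of these 0 passed in edgeR, with 8 at an unadjusted p under 0.05, while DESeq2 called 3 and limma-voom 0. In this averaged comparison 2169 of all 13139 tested genes had an unadjusted p under 0.05 in edgeR. The all-gene counts of DESeq2 and limma-voom stand with the processing results below. P2ry12 and Tmem119, which define resting microglia, were at 0 in all 16 libraries. Astrocyte genes summed to 2480 ± 1336 and 3302 ± 2814 CPM in loaded and untreated co-cultures, against 6076 ± 2558 and 4102 ± 2828 CPM in loaded and untreated neurons alone (SD, n = 4 each), with overlapping groups, and 0 of 11 passed in edgeR, with 4 at an unadjusted p under 0.05, while DESeq2 called 1 and limma-voom 2. The part of these cells in the level of Sncb was not tested. Without replicate 1 of both co-culture groups, the libraries rich in microglial genes, the averaged log2 change of Sncb was -1.998 with an adjusted p of 0.216.

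The second comparison asks whether fibril loading changes Sncb. The 8 loaded libraries had a median of 75.6 CPM and the 8 untreated ones 159 CPM, and their ranges, 0.158 to 449 and 28.2 to 498 CPM, overlapped for most of their width. Averaged over culture, the log2 change with fibrils was -0.86 ± 0.82 (SE, 95% interval -2.63 to 0.90), with an edgeR adjusted p of 0.996. In neurons alone it was -0.77 ± 1.15 (SE, 95% interval -3.26 to 1.72), and in co-culture -0.96 ± 1.16 (SE, 95% interval -3.46 to 1.54), both with an edgeR adjusted p of 1. The intervals hold falls of more than 2 log2 units as well as rises, so these libraries do not show that loading leaves Sncb alike.

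Calls with loading depended on the tool. In edgeR 0.0% of the 13139 genes passed in neurons alone, in co-culture and in the average. In the same order 909, 483 and 870 genes had an unadjusted p under 0.05. If no gene changes, a fraction of 0.05 of the genes is expected under that threshold, and the 483 in co-culture fall short of it. DESeq2 called 173, 130 and 257, and limma-voom called 0 in each. In neurons alone 1 library stands out: loaded replicate 2 had 12.4 CPM of Sncb, and the other 3 loaded libraries, at 182 to 449 CPM, lay within the range of untreated neurons alone, 156 to 498 CPM. Without that library the log2 change in neurons alone was -0.36. In co-culture the value without loaded replicate 1, the library with 1 count, was -0.56, and without untreated replicate 3 it was -0.35.

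The effect of microglia did not differ detectably with loading. The interaction for Sncb was -0.19 ± 1.62 on the log2 scale (SE, 95% interval -3.69 to 3.31), with an edgeR adjusted p of 1. For all genes the interaction gave 0.0% called in edgeR. An unadjusted p under 0.05 was found for 529 genes, fewer than the fraction of 0.05 expected if no gene changes. DESeq2 called 187 and limma-voom 0.

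**Figure D2:**
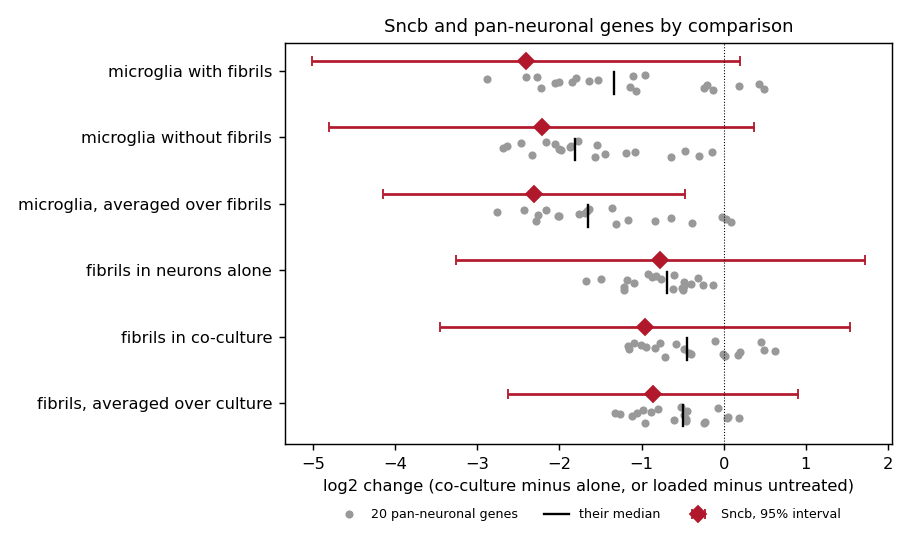
Log2 change of Sncb (diamonds, with 95% intervals) and of each of the 20 pan-neuronal genes (grey points, with their median as a bar) in 6 comparisons, co-culture minus neurons alone or loaded minus untreated. Sncb lies at -2.31 in the averaged microglia comparison and at -0.86 in the averaged fibril comparison, and pan-neuronal genes lie on both sides of it in each.

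Other neuronal transcripts were lower in co-culture too, so Sncb was set against them within each library. Of the 20 pan-neuronal genes, 18 had a negative log2 change with microglia in the averaged comparison, and 5 passed as lower: Thy1, Eno2, Stmn3, Tubb3 and Uchl1, where 0.974% of all tested genes did. Their median was -1.65, against -0.03 over all genes, and 2 of the 20, Stmn2 and Thy1, lay below Sncb. With fibrils averaged over culture, 17 were negative with a median of -0.50, and 0 passed in edgeR, DESeq2 and limma-voom. In edgeR 1 of the 20 had an unadjusted p under 0.05, as did 870 of all 13139 tested genes. The list as a whole summed to 4582 ± 609 CPM in loaded and 4352 ± 1331 CPM in untreated co-cultures, against 6787 ± 4482 CPM in loaded and 10648 ± 3427 CPM in untreated neurons alone (SD, n = 4 each).

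Per 1000 counts of the pan-neuronal list, loaded neurons with microglia held 0.0299, 2.90, 9.62 and 27.4 counts of Sncb. Untreated neurons with microglia held 11.004, 15.8, 30.0 and 10.6. Loaded neurons alone held 53.6, 3.31, 32.6 and 34.3, and untreated neurons alone held 26.9, 32.2, 39.9 and 35.9. Among untreated neurons the co-cultures lay below all libraries of neurons alone except for replicate 3, which lay above 1 of the 4. Untreated neurons alone were the most even group on this measure, at 33.8 ± 5.53 per 1000 (SD, n = 4).

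The ratio was compared as the log2 of Sncb counts over pan-neuronal counts, after adding 2 to each. Averaged over fibrils it was lower with microglia by a difference of -1.998, with an exact two-sided permutation p of 0.0404 and 0.171 after adjustment over the 6 ratio comparisons. The difference was -1.12 in untreated neurons (exact permutation p = 0.0571, adjusted 0.171) and -2.88 in loaded neurons (exact permutation p = 0.171, adjusted 0.24). With fibrils it was -0.66 in neurons alone, -2.41 in co-culture and -1.53 averaged, with exact permutation p of 0.8, 0.2 and 0.156. With 4 libraries against 4 the test cannot give a p under 0.0286. None of the 6 passed the adjustment. Set against the library of the same run of neighbouring library codes, the ratio was lower with microglia in 4 of 4 runs of loaded neurons, by differences of -9.23 to -0.20, and in 4 of 4 runs of untreated neurons, by -1.75 to -0.41. The log2 CPM of Sncb itself was lower with microglia in 3 of 4 runs of loaded neurons, with a difference of 0.04 in run 2. In untreated neurons it was lower in 4 of 4 runs. With fibrils the ratio and the log2 CPM were each lower in 3 of 4 runs in neurons alone and in 3 of 4 in co-culture. These are counts with no test, since the labels do not say that a run marks a shared culture or day.

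These ratios depend on single libraries and on the list. Without loaded co-culture replicate 1 the difference with microglia in loaded neurons was -1.21, that with fibrils in co-culture -0.74, and the averaged microglia value -1.16. Without loaded replicate 2 of the neurons alone, the difference with fibrils in neurons alone turned to 0.23. Ncam1, Mapt and Map2 made up 19.3%, 12.8% and 10.4% of pan-neuronal counts. Their log2 changes with microglia averaged over fibrils were -0.02, -0.64 and 0.02, and none passed in edgeR. The part of other cells in the counts of these genes, and so in the ratio, was not tested. Those cells include the oligodendrocyte lineage, whose genes were higher in co-culture. Ncam1, a cell adhesion molecule, averaged 1496 ± 580 CPM in loaded and 1061 ± 260 CPM in untreated co-cultures, against 1114 ± 528 CPM in loaded and 1467 ± 532 CPM in untreated neurons alone (SD, n = 4 each). Mapt, which encodes the microtubule-binding protein tau, averaged 799 ± 231 CPM in loaded and 516 ± 93.8 CPM in untreated co-cultures, against 919 ± 388 CPM in loaded and 1093 ± 709 CPM in untreated neurons alone (SD, n = 4 each). Sncb was also set against the summed excitatory-neuron list, a choice made after the data were seen. The averaged microglia difference was then -0.28 and that in untreated neurons 0.35 (adjusted p = 0.775 for both, exact permutation). Nrgn alone averaged 5499 of that list's 7877 CPM in untreated neurons alone and 2905 of 4453 CPM in loaded neurons alone. In co-cultures it averaged 616 of 1395 CPM (untreated) and 341 of 846 CPM (loaded). Its log2 change with microglia was -3.12, against a list median of -1.62.

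**Figure D3:**
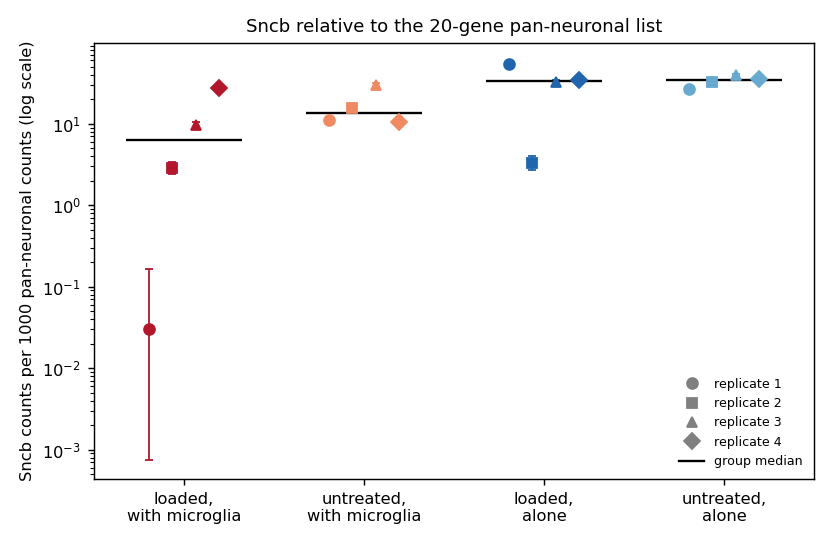
Sncb counts per 1000 counts of the 20 pan-neuronal genes in each library, on a log axis, by group. Symbols mark replicates, vertical lines the 95% Poisson interval of the Sncb count and horizontal lines the group median; loaded co-cultures lie between 0.0299 and 27.4, while untreated neurons alone lie between 26.9 and 39.9.

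The genes whose log2 CPM followed Sncb most closely over the 16 libraries were Dlg2, Slc17a7, Ociad2, Rgs4 and Cygb, with Pearson correlations of 0.967, 0.964, 0.963, 0.956 and 0.952. Dlg2 encodes a scaffold protein of synapses, Slc17a7 the vesicular glutamate transporter VGLUT1 of excitatory endings, Ociad2 a protein of endosomes and mitochondria, Rgs4 a regulator of G-protein signalling and Cygb cytoglobin, a haem protein. Over all 13138 other genes the median correlation was 0.0524 and the 99th percentile 0.813. With each group's mean subtracted, the closest were Slc17a7, Dlg2, Ociad2, Cnot8 and Cygb, at 0.949, 0.941, 0.934, 0.930 and 0.928. Cnot8 encodes a subunit of a complex that shortens poly(A) tails. Libraries share depth and cell makeup across these genes, so the correlations are descriptions over libraries and carry no test.

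The likeness was computed again without the 2 libraries farthest from the median of Sncb, loaded co-culture replicate 1 and loaded replicate 2 of the neurons alone. Over the other 14 libraries the correlations were 0.962 for Slc17a7, 0.957 for Ociad2, 0.944 for Rgs4, 0.925 for Dlg2 and 0.854 for Cygb. That of Cnot8 was -0.00393, against 0.636 over all 16 libraries, both without subtracting group means. Its likeness after that subtraction was not computed again over the 14 libraries. In loaded co-culture replicate 1, where Sncb had 1 count, Dlg2, Slc17a7, Ociad2 and Rgs4 had 0 counts, which allows up to 0.473 CPM, and Cygb had 8 counts. The same library held 14126 counts of Ncam1, 6103 of Mapt and 5784 of Map2, or 2228, 962 and 912 CPM. A further pair of neuronal genes, named after their values were seen, was at 0 counts there: Syp, the vesicle protein synaptophysin, and Stmn2, a tubulin-binding protein of growing axons. Of 1894 genes that averaged at least 100 CPM in the other libraries, 11 (0.581%) had 0 or 1 count in this library, against 0 to 5 genes in each of the other 15.

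The 5 genes most alike over the 16 libraries had the same order of group means as Sncb, which their choice by correlation over these libraries favours. Slc17a7 held 0, 5.91, 54.4 and 36.2 CPM in loaded neurons with microglia and 17.1, 64.0, 113 and 14.9 CPM in untreated neurons with microglia. It held 109, 34.8, 272 and 424 CPM in loaded neurons alone, and 115, 671, 369 and 354 CPM in untreated neurons alone. Ociad2 averaged 39.3 ± 43.1 CPM in loaded and 81.5 ± 56.6 CPM in untreated co-cultures, against 204 ± 149 CPM in loaded and 441 ± 200 CPM in untreated neurons alone (SD, n = 4 each). For Dlg2 the means were 19.2 ± 21.6 and 35.8 ± 20.3 CPM in loaded and untreated co-cultures, against 91.6 ± 106 and 147 ± 58.1 CPM in loaded and untreated neurons alone (SD, n = 4 each).

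In edgeR's averaged microglia comparison none of these genes passed, as with Sncb. The log2 change was -2.99 ± 0.88 (SE) for Slc17a7 with an adjusted p of 0.103, -2.40 ± 0.82 (SE) for Ociad2 with 0.157, and -2.23 ± 0.88 (SE) for Rgs4 with 0.223. It was -2.15 ± 0.86 (SE) for Dlg2 with an adjusted p of 0.227, -1.33 ± 0.52 (SE) for Cygb with 0.187 and 0.52 ± 0.54 (SE) for Cnot8 with 0.718. DESeq2 called Slc17a7, Ociad2 and Dlg2 as lower.

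**Figure D4:**
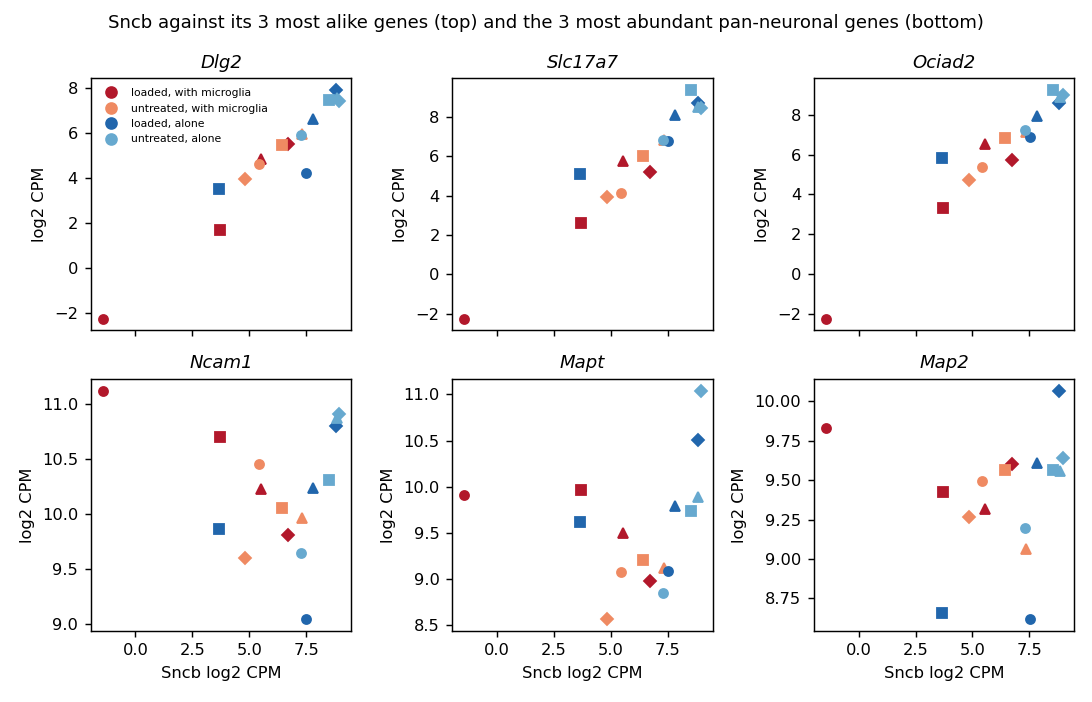
Log2 CPM of Dlg2, Slc17a7 and Ociad2 (top), the 3 genes most alike to Sncb, and of Ncam1, Mapt and Map2 (bottom), the 3 most abundant pan-neuronal genes, against log2 CPM of Sncb. Each point is 1 of the 16 libraries, coloured by group; the top genes follow Sncb down to the loaded co-culture library with 1 count of Sncb, and in that library Ncam1 is at its highest, 2228 CPM, and Mapt and Map2 are at 962 and 912 CPM, above their medians over the other libraries.

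The partners of synucleins at the vesicle were lower in co-culture as a list, as far as 17 of 18 listed genes could be tested. All 17 had a negative log2 change with microglia in the averaged comparison, with a median of -1.61 against -0.03 over all genes, and 3 passed as lower where 0.974% of all genes did. Slc17a7 and Syp lay below Sncb and did not pass. Snap25 and Syt1 also stand on the pan-neuronal list, Slc17a7 on the excitatory one, and Hspa8 on that for breakdown of α-synuclein in the lysosome.

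Syn2 fell with microglia. It encodes synapsin II, which tethers vesicles in the reserve pool, and held 80.9, 58.8, 60.5 and 52.7 CPM in loaded neurons with microglia and 131, 168, 127 and 78.6 CPM in untreated neurons with microglia. It held 89.1, 47.6, 242 and 364 CPM in loaded neurons alone and 253, 549, 634 and 594 CPM in untreated neurons alone. In untreated neurons the co-culture group lay wholly below the neurons alone, as for 3.81% of all tested genes, while in loaded neurons the groups overlapped through replicate 2 of the neurons alone. The log2 change was -1.78 ± 0.33 (SE) with an edgeR adjusted p of 0.00574, and Syn2 passed under every alternative run, each single library left out included. In loaded co-culture replicate 1, with 1 count of Sncb, Syn2 had 513 counts.

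Cplx2 and Vamp2 also passed. Cplx2 encodes complexin 2, which clamps and primes the SNARE complex, and averaged 46.5 ± 32.8 CPM in loaded and 50.9 ± 18.3 CPM in untreated co-cultures, against 159 ± 166 CPM in loaded and 186 ± 87.1 CPM in untreated neurons alone (SD, n = 4 each). Its log2 change was -1.82 ± 0.44 (SE) with an edgeR adjusted p of 0.0344. Vamp2, the vesicle SNARE that α-synuclein binds, averaged 81.7 ± 23.0 CPM in loaded and 61.8 ± 21.3 CPM in untreated co-cultures, against 166 ± 174 CPM in loaded and 284 ± 124 CPM in untreated neurons alone (SD, n = 4 each). Its log2 change was -1.61 ± 0.42 (SE) with an edgeR adjusted p of 0.0475. Without replicate 1 of both co-culture groups neither passed, at adjusted p of 0.125 for Cplx2 and 0.151 for Vamp2, and Syn2 was then the sole gene of the list that passed. The same held when 1 library was left out in 10 of 16 cases: loaded co-culture replicates 2 and 3, untreated co-culture replicates 1, 2 and 4, loaded alone replicates 3 and 4, and untreated alone replicates 2, 3 and 4.

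With fibrils averaged over culture, 14 of the 17 partners had a negative log2 change, with a median of -0.57, and 0 passed in edgeR. Of the 17, 1 gene had an unadjusted p under 0.05, as did 870 of all 13139 tested genes. That gene was Syn2, at -1.22 ± 0.33 (SE) with an edgeR adjusted p of 0.584, and of the list DESeq2 called Syn2 alone. Over the 16 libraries the 17 partners had correlations with Sncb of -0.151 (Sgta, a co-chaperone) to 0.964 (Slc17a7), with a median of 0.70.

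**Figure D5:**
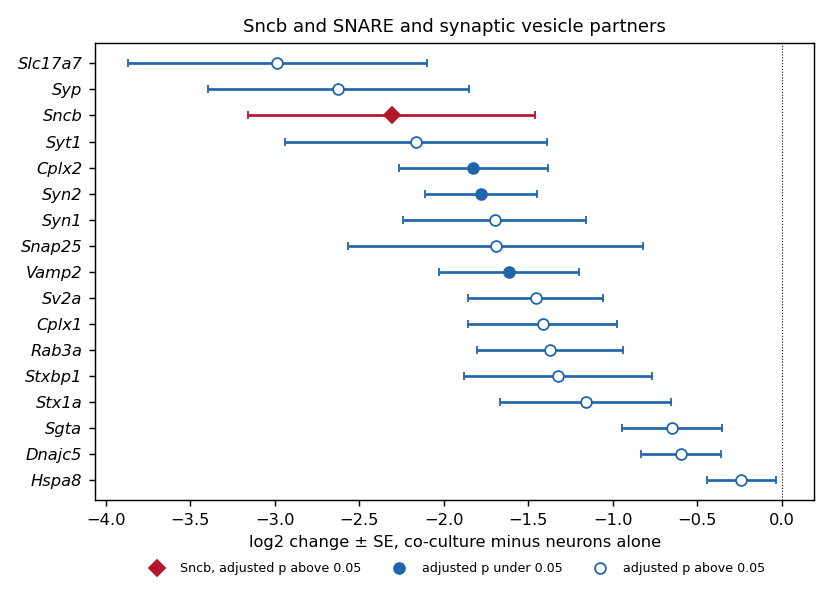
Log2 change ± SE in co-culture against neurons alone, averaged over fibrils, for Sncb (diamond) and 16 of the tested SNARE and synaptic vesicle partners of synucleins, ordered by size. Filled circles mark the 3 genes with an adjusted p under 0.05 in edgeR, Cplx2, Syn2 and Vamp2; all 16 lie below 0, and Slc17a7 and Syp lie below Sncb.

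Genes that act on α-synuclein protein were not lower as a list. Of 15 tested kinases, ubiquitin ligases, deubiquitinases and other enzymes and binding proteins, 7 had a negative and 8 a positive log2 change with microglia, with a median of 0.07, and 1 passed as higher, where 1.22% of all tested genes did. Fyn, a tyrosine kinase that phosphorylates α-synuclein, rose in co-culture. It held 986, 798, 843 and 730 CPM in loaded neurons with microglia and 695, 412, 342 and 518 CPM in untreated neurons with microglia, against 381, 372, 346 and 256 CPM in loaded and 422, 291, 196 and 221 CPM in untreated neurons alone. All 4 loaded co-culture libraries lay above every library of the other groups. The share of all tested genes with this pattern was not computed. Against loaded neurons alone, a looser rule, 3.41% of all tested genes were higher without overlap in loaded co-cultures. The log2 change was 1.05 ± 0.21 (SE) with an edgeR adjusted p of 0.0100, and Fyn is also made by oligodendrocyte-lineage cells, whose genes were higher in the same libraries; their part in this rise was not tested.

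The list for breakdown of α-synuclein in the lysosome had 10 tested genes, 5 with a negative and 5 with a positive log2 change with microglia. Their median was -0.02, and 0 passed in edgeR, DESeq2 and limma-voom. In edgeR 1 of the 10 had an unadjusted p under 0.05, as did 2169 of all 13139 tested genes. The 2 with the smallest p over the averaged comparisons were Atp13a2, a lysosomal polyamine exporter, at -0.93 ± 0.42 (SE) with an edgeR adjusted p of 0.272, and Scarb2, the receptor that carries glucocerebrosidase to lysosomes, at 0.43 ± 0.21 (SE) with 0.306. With fibrils averaged over culture 9 of the 10 were positive, with a median of 0.25, and 0 passed in these tools, with 0 at an unadjusted p under 0.05 in edgeR.

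The summed level of excitatory-neuron genes had the same order of groups as Sncb. They summed to 846 ± 395 CPM in loaded and 1395 ± 904 CPM in untreated co-cultures, against 4453 ± 2509 CPM in loaded and 7877 ± 1406 CPM in untreated neurons alone (SD, n = 4 each). Of 14 tested, 13 had a negative log2 change with microglia, with a median of -1.62, and 3 passed as lower, Nrgn, Camk2a and Rorb, where 0.974% of all tested genes did. Nrgn encodes neurogranin, a calmodulin-binding protein of dendrites. It held 150, 215, 586 and 413 CPM in loaded neurons with microglia and 117, 1200.3, 912 and 235 CPM in untreated neurons with microglia, against 2667, 1048, 3003 and 4901 CPM in loaded and 4765, 6335, 4459 and 6436 CPM in untreated neurons alone. In loaded and in untreated neurons alike the 4 co-culture libraries lay below all 4 libraries of neurons alone, as for 2.91% and 3.81% of all tested genes. Its log2 change was -3.12 ± 0.48 (SE) with an edgeR adjusted p of 0.00387. Without replicate 1 of both co-culture groups Nrgn was the sole gene of this list that passed, and with single libraries left out 1 to 3 of its genes did.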

How the data were processed

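Raw, unnormalized counts for each gene symbol and library are the authors' deposited values; reads were aligned with STAR to mm10 and handled in Partek, per the submitters' processing notes. The counting tool, its strand setting and any use of molecular identifiers are not given in the sources used here. A deposited table of normalized values was not used. Groups come from the treatment label, and replicate numbers stand for runs of adjacent library codes in the sample titles.

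The low-count filter was filterByExpr with a minimum count of 10 and a minimum total of 15, and scaling was by TMM. They were fitted in 1 robust quasi-likelihood model with 4 group means (edgeR 4.0.16, R 4.3.3), adjusted by Benjamini-Hochberg over all tested genes and called at an adjusted p under 0.05. The fit was tested on simulated data. Log2 CPM used a prior count of 2. Alternatives used DESeq2 1.42.0, limma-voom (limma 3.58.1), other scalings, no filter, a replicate block, 2 groups alone and left-out libraries. Ratio tests and tables used Python 3.11.15 with pandas 2.3.3 and scipy 1.17.1; averaged contrasts were permuted within each condition. Plots used matplotlib 3.10.9. Tests planned for Sncg were not run, so ratio p-values were adjusted over 6 comparisons rather than all those planned. Positions are from GENCODE M21.

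The members, lists and tests were chosen with earlier results of these data known. Genes named were Sncb, the 5 most correlated with it over all libraries and the 5 after subtracting group means, the 3 most abundant of each cell type list, and up to 4 called members of each pathway list (or the 2 with the smallest p). Other genes were named after their values were seen. Of the genes the rules and lists cover, some are not reported here.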

Additional observations from a re-analysis of the deposited data

Results flagged for a closer look

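In 132 sets of 4 libraries, covering Sncb, the other genes given by level and the gene lists, the highest or lowest library was set against Dixon's 95% critical value, which chance exceeds in about 1 of 20 sets; 9 exceeded it, and none of the 12 sets of Sncb did. Microglial genes summed to 1431 CPM in loaded co-culture replicate 1 and to 732 CPM in untreated co-culture replicate 1, both far above the rest of their group. Among genes that follow Sncb, Dlg2 was low in untreated neurons alone replicate 1, at 60.3 CPM. In the same library Rorb was high, at 828 CPM, and so was the astrocyte list, at 8330.3 CPM. The astrocyte list was also high in untreated co-culture replicate 4, at 7488 CPM. Of the vesicle partners Cplx2 was high in loaded co-culture replicate 4, at 95.1 CPM. Atp13a2 was low in untreated co-culture replicate 3, at 15.8 CPM. The list of Cck and Vip type interneurons was high in loaded neurons alone replicate 4, at 1667 CPM.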

How the results depend on the processing

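The log2 change of Sncb kept its sign under every alternative to the 6 comparisons between groups, and passed in 1: DESeq2 gave -2.33 for microglia averaged over fibrils. With single libraries left out it ranged from -2.83 to -1.99 there, from -3.45 to -1.77 for microglia with fibrils and from -2.82 to -1.93 without them. For fibrils it ranged from -1.39 to -0.56 averaged, from -1.40 to -0.36 in neurons alone and from -2.01 to -0.35 in co-culture. The interaction turned sign in 5 of 16 such fits, ranging from -1.24 to 0.45, so its direction is not settled. The ratio to pan-neuronal counts ranged from -2.54 to -1.16 for microglia averaged, from -3.96 to -1.21 with and from -1.44 to -0.94 without fibrils. For fibrils it ranged from -2.08 to -0.70 averaged, from -3.50 to -0.74 in co-culture and from -1.10 to 0.23 in neurons alone. Against the excitatory list, microglia without fibrils gave 0.35; the cause was not tested.

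Counts of genes called depended on the method, for causes not tested. DESeq2 called 173, 130 and 257 for fibrils in neurons alone, in co-culture and averaged, 187 for the interaction, and 492, 295 and 1094 for microglia with fibrils, without them and averaged, against 15, 16 and 288 in edgeR. For microglia with fibrils, without them and averaged, limma-voom called 40, 92 and 662. In that average DESeq2 called 11 pan-neuronal genes, 10 vesicle partners and 5 excitatory genes and limma-voom 11, 3 and 3, against 5, 3 and 3 in edgeR. With and without fibrils, library totals gave 31 and 50, no filter 26 and 26, and the 2 groups alone 0 and 1. Without replicate 1 of both co-culture groups 0 were called for microglia without fibrils and 152 averaged. With single libraries left out the counts ranged from 1 to 26, from 0 to 39 and from 158 to 333 for microglia with, without and averaged. They ranged from 0 to 7, 0 to 0 and 0 to 1 for fibrils in neurons alone, in co-culture and averaged, and from 0 to 0 for the interaction.

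The replicate numbers did not meet the criterion for pairing, a correlation over 0.1 in every pair. That criterion is strict, so missing it does not show that the libraries are unpaired. Residuals of libraries sharing a number correlated at -0.111 to 0.217, with a median of 0.0433 and 4 of 24 pairs over 0.1. Between different numbers the median was -0.0125, with 4 of 72 pairs over 0.1. Of 16 libraries, 10 were most alike to one of their own number, a hint of pairing from the data and not from the labels. With the replicate block 42 and 38 genes were called for microglia with and without fibrils, and Sncb changed by -2.48 with microglia averaged (adjusted p = 0.165, edgeR). For the other genes named, 301 values kept their side of the threshold, 59 lost it and 5 gained it.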

Other observations

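The summed lists of inhibitory and of catecholaminergic, sensory and motor neuron genes were lower than that of excitatory-neuron genes in each group. Sums over lists of different genes do not measure the share of a neuron type. The list of Cck and Vip type interneurons averaged 1529 CPM in untreated neurons alone, of which Cck made up 1349 CPM. Inhibitory-neuron genes summed to 113 ± 90.5 CPM in loaded and 133 ± 58.5 CPM in untreated co-cultures, against 219 ± 157 CPM in loaded and 238 ± 140 CPM in untreated neurons alone (SD, n = 4 each). In the averaged microglia comparison 0 of 12 tested passed in edgeR, with a median log2 change of -0.37. Of the 12, 3 had an unadjusted p under 0.05, as did 2169 of all 13139 tested genes. DESeq2 called 1 and limma-voom 0, and the counts these tools called over all genes are given above. Of 6 tested genes of Cck and Vip type interneurons, which the mouse cortex taxonomy names after Sncg, 1 passed as higher in edgeR, where 1.22% of all tested genes did: Prox1, a transcription factor also made by oligodendrocyte-lineage cells. None of the 6 passed without replicate 1 of both co-culture groups. DESeq2 called Prox1 as higher and Cck and Cnr1 as lower, and limma-voom called Cck alone, as lower; in edgeR the log2 changes of Cck and Cnr1 were -2.69 and -1.84 and did not pass. The catecholaminergic, sensory and motor neuron genes, 6 of 12 listed of which were found, summed to at most 28.6 CPM in any library, and vascular and fibroblast genes to at most 23.6 CPM.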
